A study of Homo sapiens with 12 samples.

Results

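The genes described here are 52 developmental regulators that carry a homeobox or a paired box and lie outside the HOX clusters. The list names gene families, with no measured value in its rule, and its members were found on the array by annotated symbol. Every one of the 52 was matched, by exactly 1 cluster each, among 18417 genes tested. They comprise 9 paired box genes (PAX1 to PAX9), 10 LIM homeodomain genes (the LHX genes with ISL1 and ISL2), 5 sine oculis genes (SIX2 to SIX6), 6 DLX genes, 6 IRX genes, 3 TLX genes, 4 EMX and OTX genes, 4 MSX and EN genes and 5 NKX genes.

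Expression was measured in NCCIT, a human embryonal carcinoma line kept in McCoy's 5A medium with serum, and no animal, donor or clone is involved. Cells were transfected on consecutive days with pools of siRNAs and harvested on the fourth day after seeding, as the methods give for the chromatin knockdowns. siWDR5 targets a core subunit of the MLL/COMPASS complexes that trimethylate H3K4, siEED targets the PRC2 subunit needed for H3K27 trimethylation, and siRNF2 targets the PRC1 ubiquitin ligase for H2AK119. siEED+RNF2 targets the last 2 together, and siSETD2 targets the enzyme that trimethylates H3K36 and is labelled in the series without being described in the paper's text. By the methods, the mix for the dual knockdown held more siRNA and more transfection reagent than that for a single target. Transfection dose and the added target therefore cannot be told apart in siEED+RNF2. siNTC, a non-targeting siRNA and the only control, is labelled as a re-analysis. No knockdown array carries that label, and the labels do not say what it means. Whatever it stands for therefore cannot be told apart from a knockdown effect in any comparison with siNTC. There were 2 arrays for each of the 6 conditions, and no source tells if the 2 came from separate cultures. A p-value here therefore speaks of array-to-array spread, which may be technical.

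Homeobox and PAX genes encode DNA-binding transcription factors that pattern the embryo and specify tissues such as forebrain, eye, limb, heart and pancreas. In pluripotent cells most of them are held at low expression, and their CpG-rich promoters are classic Polycomb targets. Many such promoters are bivalent, which means that they carry H3K4me3 and H3K27me3 at once. The comparisons therefore ask whether transcript levels of these regulators differ once a complex that places one of these marks, or the H3K36 mark of transcribed genes, is depleted.

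Against siNTC, 4 of the 52 genes were called in at least 1 knockdown and 48 in none. A call required an adjusted p under 0.05, from limma with Benjamini-Hochberg adjustment over the 18417 genes, and a difference of at least 1.5-fold, which is 0.585 on the log2 scale. Of all genes under 5 in siNTC (log2 expression), 1.62% were called in at least 1 knockdown. The share was 18.5% from 5 to 7, 32.1% from 7 to 9 and 27.1% at 9 or more. In the same order of levels, the members called were 0 of 18, 0 of 26, 3 of 6 and 1 of 2. LHX2 fell in siEED and in siSETD2, MSX2 fell in siWDR5, and IRX1 and NKX6-1 rose in siWDR5. Of these calls, only LHX2 in siSETD2 remained when siNTC was replaced by the mean of knockdowns sharing no siRNA with the one tested. No member was called in siRNF2, where 6.37% of all genes were called higher and 3.81% lower. None was called in siEED+RNF2 either, where these shares were 5.49% and 6.02%. The siNTC arrays are shared by all 5 comparisons, so the knockdowns are not independent of each other.

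The transcripts of the siRNA targets were checked first. WDR5 fell by 1.21 in siWDR5, EED fell by 1.29 in siEED and by 1.61 in siEED+RNF2, and SETD2 fell by 1.75 in siSETD2 (log2 differences from siNTC). EED was lower than siNTC in the other knockdowns too, with a called difference of -0.66 in siRNF2 and differences under 1.5-fold of -0.54 in siWDR5 and -0.42 in siSETD2. WDR5 read 9.82 to 10.09 in the knockdowns other than siWDR5, above the 9.48 and 9.58 of siNTC. SETD2 read 10.28 to 10.76 in those other than siSETD2, below the 10.78 and 10.81 of siNTC and lowest in siEED+RNF2. The level of RNF2 was not analysed here. Replicate arrays correlated at 0.9960 to 0.9970 over all transcript clusters and arrays of different conditions at most at 0.9952. Of 4 pluripotent cell markers measured, SOX2 read 12.5 to 12.8 in all 12 arrays and SALL4 was not called. LIN28A fell by 0.68 in siWDR5 and DPPA4 rose by 0.59 in siSETD2, the same knockdowns in which MSX2, IRX1, NKX6-1 or LHX2 were called, and the part of this in those results was not tested. The summed linear signal of 3 blood markers was 57.8 to 68.4 in every condition. The summed signal of 5 trophoblast markers, nearly all of it from TFAP2A, was 5280 to 5400 in siNTC, 4870 to 5370 in the siEED, siRNF2 and siEED+RNF2 arrays, 3340 to 3600 in siWDR5 and 1800 to 1860 in siSETD2. GATA2, GATA3, CGA and KRT7, the rest of that list, read only 4.38 to 5.74 over all arrays.

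The level in the control came first, since the difference that can be seen depends on it. Mean log2 expression of the 52 genes in siNTC ran from 4.19 for LHX8 to 11.14 for OTX2, with a median of 5.33, and over all genes it ran from 3.55 to 14.32 with a median of 6.84. Values of different transcript clusters come from different probes and are given as levels of each, without a ranking between genes. Of the members, 44 lay under 7 and 18 of these lay under 5. The 8 at 7 or more were LHX2, SIX4, IRX1, IRX2, OTX2, MSX2, NKX2-5 and NKX6-1. All 4 called members were among these 8. In the range under 5, 0 of 18 members were called in any knockdown, where 1.62% of all genes at that level were. From 5 to 7 the count was 0 of 26 members against 18.5% of all genes, from 7 to 9 it was 3 of 6 against 32.1%, and at 9 or more it was 1 of 2 against 27.1%. The files give no detection p for a cluster, so whether the dim members were transcribed at all was not tested.

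**Figure D1:**
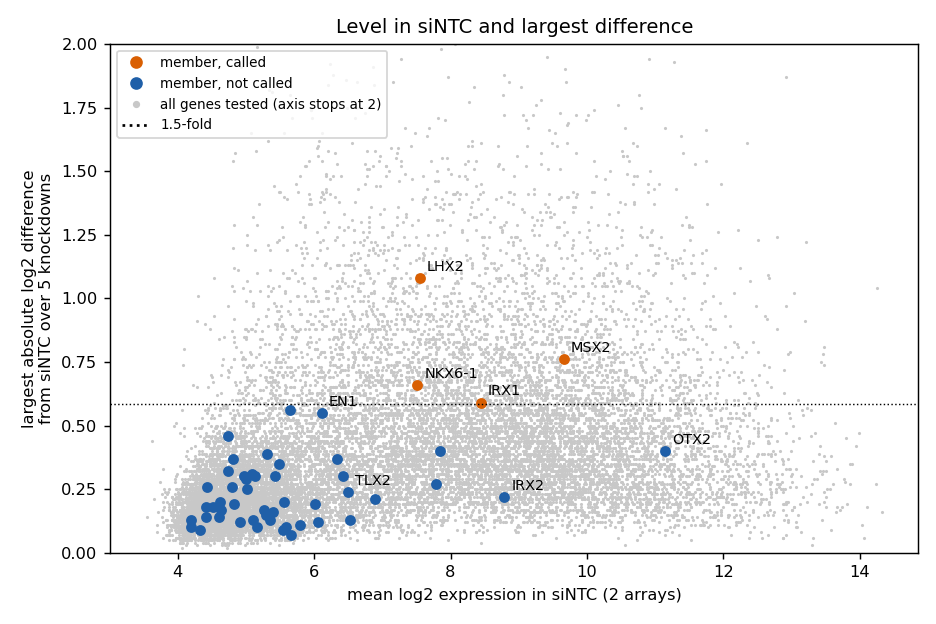
Mean log2 expression in siNTC (2 arrays, x axis) against the largest absolute log2 difference from siNTC over the 5 knockdowns (y axis), for the 52 homeobox and PAX genes and, in grey, all genes tested. Most members sit at the left under 7, and the 4 called members (orange) lie at 7 or more, at and above the dotted line of 1.5-fold.

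Counts per knockdown were set beside the share of all genes called. In siWDR5, 2 members rose and 1 fell, while 2.8% of all genes were called higher and 3.22% lower. In siEED, 0 rose and 1 fell, against 3.74% and 2.63% of all genes. In siRNF2, 0 rose and 0 fell, against 6.37% and 3.81%, and 9 members were higher and 9 lower at an unadjusted p under 0.05, where 23.6% and 27.1% of all genes were. In siEED+RNF2, 0 rose and 0 fell, against 5.49% and 6.02%, with 12 members higher and 8 lower at an unadjusted p under 0.05, where 23.8% and 25.4% of all genes were. In siSETD2, 0 rose and 1 fell, against 2.64% and 3.18%. Only limma was run. As a share of 52 members, 3 calls are 5.77% and 1 call is 1.92%, so the siWDR5 count was near the 6.02% of all genes called in that knockdown in either direction. The median log2 difference of the 52 members was -0.04 in siSETD2, -0.02 in siWDR5, 0.02 in siRNF2 and -0.01 in each of the siEED and siEED+RNF2 comparisons, where that of all genes lay between -0.04 and -0.01.

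A missing call can be set beside its precision. The 95% interval of a member's difference from siNTC reached a median of 0.18 to either side. The whole interval lay within 1.5-fold for 46 of 52 members in siWDR5, 49 in siRNF2, 47 in siEED, and 48 in both siSETD2 and siEED+RNF2. For 40 members it did so in all 5 knockdowns. Uncalled members whose interval passed 1.5-fold were LHX2, LHX6 and LHX9 in siWDR5, then LHX9, IRX1, IRX6 and EN1 in siEED. They were ISL1, EN1 and NKX6-1 in siRNF2, LHX9, SIX4, IRX1 and EN1 in siEED+RNF2, and DLX2, DLX5 and MSX2 in siSETD2. The 48 uncalled members spanned 0.19 to 0.87 between their lowest and highest of the 12 arrays, with a median span of 0.36. Such intervals cover the deposited log2 scale, and for dim genes the differences on that scale may be smaller than those of the transcripts.

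**Figure D2:**
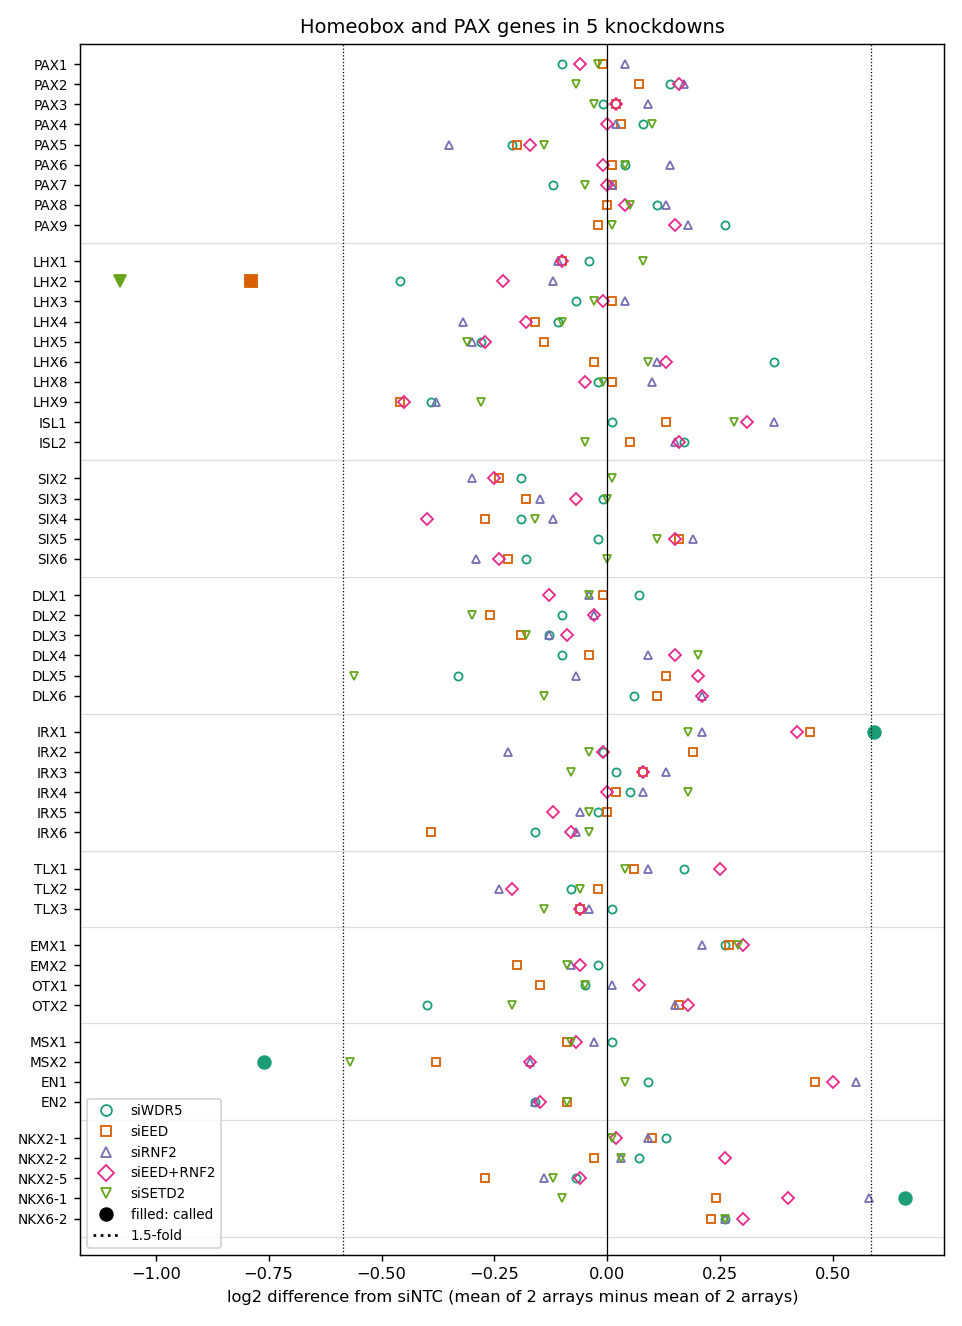
Log2 difference of each of the 52 genes from siNTC (x axis, mean of 2 arrays minus mean of 2 arrays) in the 5 knockdowns, with families separated by grey lines. Filled symbols mark the calls, which are LHX2 in siEED and siSETD2, MSX2, IRX1 and NKX6-1 in siWDR5, and the dotted lines mark 1.5-fold.

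LHX2, a LIM homeodomain factor needed for eye and forebrain development, was the member with the largest difference. Its promoter, the 250 bases before the start on the plus strand of GRCh38.p14 at chr9:124011518-124011767, is printed from RefSeq because the gene was called in more than 1 knockdown. Capitals mark CG dinucleotides, the sites of CpG methylation. There are 25 of them in a stretch with 70.4% G and C.
LHX2 promoter: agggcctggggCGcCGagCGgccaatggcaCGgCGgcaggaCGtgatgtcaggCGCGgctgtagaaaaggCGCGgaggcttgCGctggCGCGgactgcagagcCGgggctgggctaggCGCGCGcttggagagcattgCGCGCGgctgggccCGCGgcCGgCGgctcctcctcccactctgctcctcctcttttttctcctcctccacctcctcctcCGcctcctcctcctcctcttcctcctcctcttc

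LHX2 read 7.52 and 7.58 in siNTC, 6.73 and 6.80 in siEED and 6.40 and 6.54 in siSETD2 (log2 expression). It read 7.12 and 7.06 in siWDR5, 7.34 and 7.30 in siEED+RNF2, and 7.46 and 7.41 in siRNF2. Every knockdown array lay below both siNTC arrays, those of siSETD2 lowest and those of siRNF2 closest to the control, and the pairs of different conditions did not overlap. The gene fell by 0.79 in siEED, 1.72-fold (adjusted p = 5.62e-06 from limma, standard error 0.07). In siSETD2 it fell by 1.08 (standard error 0.07, adjusted p = 6.05e-07), 2.11-fold lower. In bulk cells, fewer LHX2-expressing cells and less RNA per cell cannot be told apart. The siSETD2 arrays were also those with the lowest level of TFAP2A, and the part of that in the LHX2 result was not tested.

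The differences of LHX2 in the other knockdowns were below 1.5-fold. siWDR5 gave -0.46 (adjusted p = 2.9e-04), siEED+RNF2 -0.23 (adjusted p = 0.0165) and siRNF2 -0.12 (adjusted p = 0.18). Leaving out any single array kept both calls, at -0.82 to -0.75 in siEED and -1.15 to -1.01 in siSETD2. The reference mattered more. With siNTC replaced by the mean of those knockdowns that have no siRNA in common with the one tested, the siEED difference was -0.24 and not called, while siSETD2 remained called at -0.68. With that reference siRNF2 turned from -0.12 to 0.66 and was called higher. The reference for siRNF2 was the mean of siWDR5, siEED and siSETD2, the conditions with the lowest LHX2. Such shifts therefore follow from the differences already given.

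siEED and siRNF2 were compared directly within the same fit. LHX2 was higher in siRNF2 than in siEED by 0.67 (limma adjusted p = 1.36e-04, standard error 0.07), and it was the only member called. That made 1 member higher and 0 lower, where 0.793% of all genes were called higher and 0.467% lower. For the other members, the whole interval of the difference between these knockdowns lay within 1.5-fold for 51 of 52, LHX2 being the exception. IRX2, an Iroquois factor, was next in size at -0.42 (adjusted p = 0.00181), within the fold limit. Its arrays read 8.96 and 9.01 in siEED and 8.53 and 8.61 in siRNF2, without overlap, with 8.80 and 8.79 in siNTC between them.

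The dual knockdown was then set against each single one. Its transfection also held more siRNA and reagent, and the part of this in the differences was not tested. Against siEED, 0 members were called higher and 0 lower, where 0.157% and 2.75% of all genes were, and 9 members were higher and 1 lower at an unadjusted p under 0.05, beside 14.3% and 12.8% of all genes. LHX2 was 0.56 higher in siEED+RNF2 than in siEED (adjusted p = 1.33e-04), short of 1.5-fold, and it was called when siEED replicate 2 was left out or the arrays were quantile normalized. Against siRNF2, 0 were called higher and 0 lower, where 0.239% and 3.03% of all genes were, with 4 members higher and 3 lower at an unadjusted p under 0.05, beside 13.6% and 16.0% of all genes. There LHX2 differed by -0.11, and all 52 intervals lay within 1.5-fold. The interaction asks whether the dual knockdown differs from the sum of the single ones on the log2 scale. It was called higher for 1 member, LHX2, at 0.68 (standard error 0.09, adjusted p = 2.74e-04), and lower for 0 members, where 3.89% of all genes were higher and 7.43% lower. The sum of the single differences would have placed LHX2 further below siNTC than its -0.23. EN1 and NKX6-1 had interactions of -0.51 and -0.42 (adjusted p = 0.0231 and 0.00514), under the fold limit.

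MSX2, a homeodomain repressor downstream of BMP signalling in skull, limb and tooth, was called in siWDR5. Its promoter at chr5:174724332-174724581 on the plus strand of GRCh38.p14 is printed from RefSeq beside those of the pair of genes that rose in siWDR5, so that the members called in that knockdown can be read together. The IRX1 promoter lies at chr5:3595582-3595831 on the plus strand. The NKX6-1 promoter lies at chr4:84499293-84499542 and is given on its own minus strand. Capitals again mark CG, of which MSX2 has 17, IRX1 29 and NKX6-1 23 in the 250 bases before the start. G and C make up 55.6%, 75.2% and 67.6%.
MSX2 promoter: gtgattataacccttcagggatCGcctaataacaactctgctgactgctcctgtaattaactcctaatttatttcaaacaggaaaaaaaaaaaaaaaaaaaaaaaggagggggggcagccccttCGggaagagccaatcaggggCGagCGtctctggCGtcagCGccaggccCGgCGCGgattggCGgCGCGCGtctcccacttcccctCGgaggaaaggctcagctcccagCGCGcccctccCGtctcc
IRX1 promoter: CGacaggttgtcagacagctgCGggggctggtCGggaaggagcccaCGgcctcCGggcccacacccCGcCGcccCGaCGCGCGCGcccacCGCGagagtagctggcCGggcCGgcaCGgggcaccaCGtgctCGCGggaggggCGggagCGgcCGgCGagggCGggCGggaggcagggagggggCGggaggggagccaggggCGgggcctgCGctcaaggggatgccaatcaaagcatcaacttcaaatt
NKX6-1 promoter: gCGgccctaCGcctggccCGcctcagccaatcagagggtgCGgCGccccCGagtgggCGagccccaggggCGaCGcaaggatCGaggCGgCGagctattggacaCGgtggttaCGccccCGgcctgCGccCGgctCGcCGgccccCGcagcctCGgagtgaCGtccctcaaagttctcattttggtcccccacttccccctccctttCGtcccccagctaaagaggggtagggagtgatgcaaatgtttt

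MSX2 read 9.64 and 9.67 in siNTC and 8.93 and 8.86 in siWDR5. It read 9.11 and 9.07 in siSETD2, 9.23 and 9.33 in siEED, 9.45 and 9.51 in siRNF2, while siEED+RNF2 gave 9.44 and 9.53. All 10 knockdown arrays lay below the siNTC arrays, lowest in siWDR5 and next in siSETD2. The gene fell by 0.76 in siWDR5 (standard error 0.06, adjusted p = 7.35e-06 from limma), 1.69-fold lower, and the difference stayed between -0.79 and -0.72 with any single array left out. In siSETD2 the difference was -0.57 (adjusted p = 5.17e-05), just short of 1.5-fold. siEED gave -0.38, and siEED+RNF2 and siRNF2 gave -0.17 each. Against the mean of the other knockdowns the siWDR5 difference was -0.44 and was not called. TFAP2A was lower in the same conditions, siWDR5 and siSETD2, in which MSX2 was lowest, and its part in the result was not tested. MSX1, the paralog on chromosome 4, differed by 0.01 in siWDR5 and read 5.36 to 5.66 over all arrays.

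NKX6-1, which specifies pancreatic beta cells and ventral neural progenitors, rose in siWDR5. It read 7.56 and 7.46 in siNTC, 8.22 and 8.12 in siWDR5, and 8.09 and 8.08 in siRNF2. The siEED arrays gave 7.70 and 7.79, the siEED+RNF2 arrays 7.94 and 7.87, and those of siSETD2 7.43 and 7.39. Both arrays of siWDR5, siRNF2, siEED and siEED+RNF2 lay above siNTC without overlap, and those of siSETD2 lay below it. The rise in siWDR5 was 0.66 (standard error 0.07, adjusted p = 2.03e-05 from limma), 1.58-fold. In siRNF2 the difference was 0.58 (adjusted p = 2.8e-05), 1.49-fold and just short of the limit, and it was called at 0.63 without siNTC replicate 1. In siEED+RNF2 it was 0.40, in siEED 0.24 and in siSETD2 -0.10. Against the mean of the other knockdowns the siWDR5 difference was 0.38 and was not called.

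IRX1, an Iroquois factor of neural, limb and lung patterning, rose in siWDR5 by the smallest margin of the 4. It read 8.35 and 8.53 in siNTC and 9.09 and 8.97 in siWDR5. It read 8.84 and 8.93 in siEED, 8.55 and 8.74 in siRNF2, 8.68 and 8.55 in siSETD2, and 8.79 and 8.93 in siEED+RNF2. Every knockdown array was above both siNTC arrays, which differed from each other by more than most pairs did. The rise in siWDR5 was 0.59 (standard error 0.09, adjusted p = 4.22e-04 from limma), 1.51-fold. It was no longer called without siWDR5 replicate 1 (0.53), without siNTC replicate 1 (0.50) or against the mean of the other knockdowns (0.28). The differences in siEED and siEED+RNF2 were 0.45 and 0.42, and those in siRNF2 and siSETD2 were 0.21 and 0.18. Its neighbours in the Iroquois cluster of chromosome 5 did not share the call, with differences in siWDR5 of -0.01 for IRX2 and 0.05 for IRX4. The cluster on chromosome 16 gave 0.02 for IRX3, -0.02 for IRX5 and -0.16 for IRX6.

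**Figure D3:**
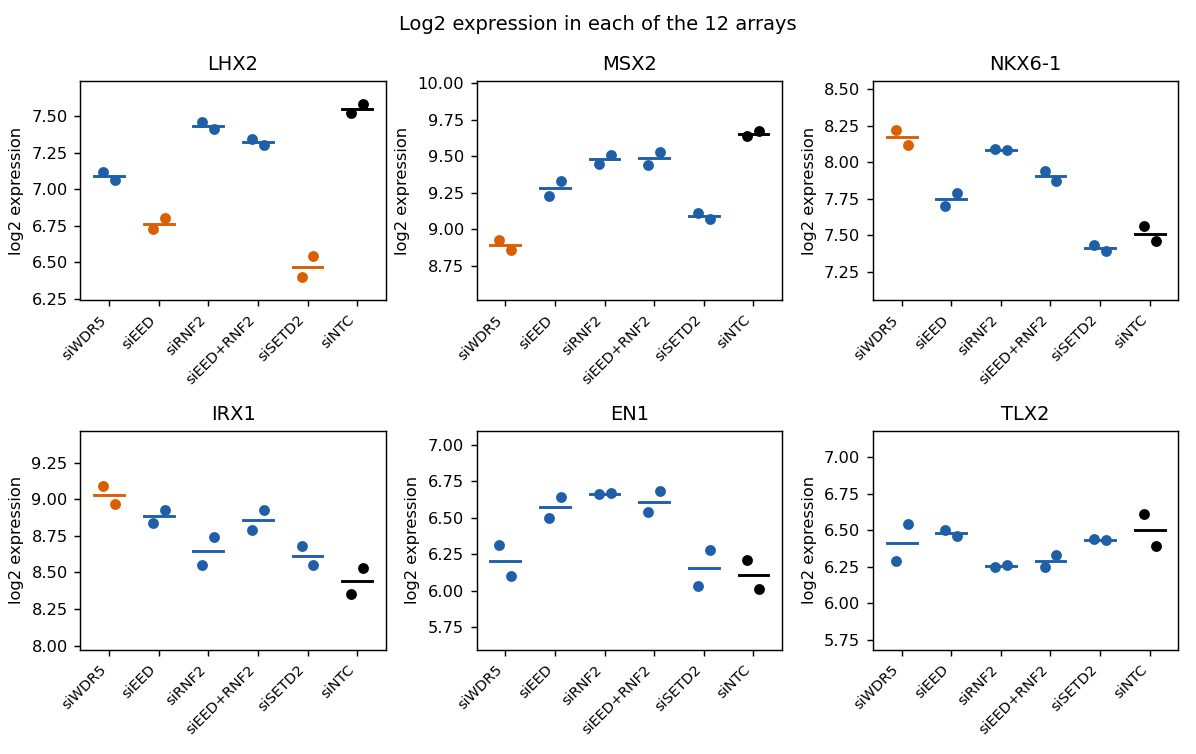
Log2 expression (y axis, each panel spanning the same number of log2 units) in each of the 12 arrays for the 4 called members and for EN1 and TLX2, with lines at the condition means, siNTC in black and called conditions in orange. LHX2 sits lowest in siSETD2 (6.40 and 6.54), MSX2 lowest in siWDR5 (8.93 and 8.86), and the TLX2 arrays stay between 6.25 and 6.61.

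TLX2, a homeodomain factor of the enteric nervous system and other neural crest derivatives, was not called. It read 6.61 and 6.39 in siNTC, 6.29 and 6.54 in siWDR5, 6.50 and 6.46 in siEED, and 6.44 and 6.43 in siSETD2. The siRNF2 arrays gave 6.25 and 6.26 and the siEED+RNF2 arrays 6.25 and 6.33. Only in these last 2 conditions were both arrays below both siNTC arrays. The difference was -0.24 in siRNF2 (adjusted p = 0.045 from limma, under 1.5-fold) and -0.21 in siEED+RNF2 (adjusted p = 0.0861), and it was -0.08, -0.02 and -0.06 in siWDR5, siEED and siSETD2. Its paralogs TLX1 and TLX3 differed by -0.14 to 0.25 over the 5 knockdowns.

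EN1, which sets up the midbrain-hindbrain boundary, came close to a call in the Polycomb knockdowns. It read 6.21 and 6.01 in siNTC, 6.66 and 6.67 in siRNF2, 6.54 and 6.68 in siEED+RNF2, and 6.50 and 6.64 in siEED. It read 6.31 and 6.10 in siWDR5 and 6.03 and 6.28 in siSETD2. The arrays of the 3 Polycomb knockdowns lay above all others, and those of siWDR5 and siSETD2 overlapped siNTC. The differences were 0.55 in siRNF2 (adjusted p = 0.00132), 0.50 in siEED+RNF2 (adjusted p = 0.00239) and 0.46 in siEED (adjusted p = 0.00557), all under 1.5-fold. Without siNTC replicate 1 it was called in siRNF2 (0.65) and in siEED+RNF2 (0.60), and with quantile normalization in siRNF2 (0.60). EN2 differed by -0.16 to -0.09 over the 5 knockdowns.

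OTX2, a forebrain regulator that pluripotent cells already express, read 11.12 and 11.16 in siNTC and 10.75 and 10.73 in siWDR5. Its arrays gave 10.98 and 10.89 in siSETD2, 11.30 and 11.31 in siEED, 11.29 and 11.29 in siRNF2, while siEED+RNF2 gave 11.30 and 11.35. The siWDR5 and siSETD2 arrays lay below siNTC and those of the 3 Polycomb knockdowns above it. The difference in siWDR5 was -0.40 (adjusted p = 3.33e-04) and its 95% interval, -0.53 to -0.27, stayed within 1.5-fold. In siSETD2 it was -0.21, and in the Polycomb knockdowns it was 0.15 to 0.18. OTX1, EMX1 and EMX2, the other forebrain genes of this group, differed by -0.20 to 0.30 and were not called.

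DLX5, a distal-less gene of forebrain interneurons and skeleton, read 5.68 and 5.60 in siNTC and 5.10 and 5.06 in siSETD2. Its siWDR5 arrays gave 5.32 and 5.30, those of siRNF2 5.49 and 5.66, those of siEED 5.61 and 5.93, and those of siEED+RNF2 5.77 and 5.90. The siSETD2 and siWDR5 arrays lay below siNTC, and those of siEED and siRNF2 overlapped it. The difference in siSETD2 was -0.56 (adjusted p = 0.00111), 1.48-fold and short of the limit, and it was called at -0.60 without siNTC replicate 2. DLX6, its neighbour on chromosome 7, differed by -0.14 in siSETD2. Against the mean of siWDR5 and siSETD2 in place of siNTC, DLX5 was called higher in siEED+RNF2, at 0.64 where it was 0.20 against siNTC. The other 4 DLX genes differed by -0.30 to 0.20 and were not called.

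LHX9, SIX4 and IRX6 completed the 10 members with the largest differences from siNTC. LHX9, a factor of gonad and limb development, read 4.75 and 4.73 in siNTC, 4.33 and 4.26 in siEED+RNF2, 4.38 and 4.35 in siRNF2, and 4.34 and 4.23 in siEED. It read 4.23 and 4.47 in siWDR5 and 4.57 and 4.36 in siSETD2, so that all 10 knockdown arrays lay below the 2 siNTC arrays. The differences ran from -0.46 in siEED (adjusted p = 0.00225) to -0.28 in siSETD2, under 1.5-fold and at a level where few genes were called. SIX4, a sine oculis factor of muscle and kidney, read 7.91 and 7.78 in siNTC and 7.34 and 7.53 in siEED+RNF2. Its arrays gave 7.79 and 7.66 in siRNF2, 7.59 and 7.55 in siEED, 7.78 and 7.53 in siWDR5, and 7.75 and 7.62 in siSETD2. The siEED+RNF2 arrays were lowest on average, at -0.40 (adjusted p = 0.00574), and those of siWDR5 and siRNF2 reached the lower siNTC array. IRX6 read 5.39 and 5.23 in siNTC and 4.94 and 4.91 in siEED, a difference of -0.39 (adjusted p = 0.00681), and 5.00 to 5.31 in the other 8 knockdown arrays.

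The remaining members had no call in any knockdown. The 9 PAX genes, among them PAX6 of eye and brain, PAX3 and PAX7 of neural crest and muscle and PAX5 of B cells, lay between 4.33 and 5.59 in siNTC, and their differences from it ran from -0.35 for PAX5 in siRNF2 to 0.26 for PAX9 in siWDR5. The other 9 LIM homeodomain genes beside LHX2 differed by -0.46 to 0.37. ISL1, a motor neuron and cardiac progenitor factor, reached 0.37 in siRNF2, and LHX6, of cortical interneurons, reached 0.37 in siWDR5, neither called. The sine oculis genes, SIX2 to SIX6, differed by -0.40 to 0.19. NKX2-5, the cardiac factor, read 7.77 and 7.82 in siNTC and had its largest difference in siEED, -0.27. NKX2-1, NKX2-2 and NKX6-2, of thyroid, lung and ventral neural tube, differed by -0.03 to 0.30.

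Genes from lists of cofactors and of TALE homeobox genes gave calls of their own. These lists, and that of Groucho corepressors, were chosen by function with earlier results of these data known. LMO3, of the LIM-only proteins that compete for the LIM cofactor LDB1, fell in 4 knockdowns, with log2 differences of -2.12 in siRNF2, -1.68 in siEED+RNF2, -1.62 in siEED and -1.54 in siWDR5 (limma). LMO3 read 7.91 and 7.91 in siNTC and between 5.70 and 6.39 in those 4 knockdowns. LMO4 rose by 0.98 in siWDR5, 0.90 in siRNF2 and 0.65 in siEED+RNF2. The other 10 of 12 measured cofactors of LIM and sine oculis proteins, among them LDB1, EYA1 and DACH1, were not called in any knockdown. Of 9 genes of the TALE homeobox class, MEIS2 rose by 0.84 in siEED+RNF2, 0.75 in siRNF2 and 0.67 in siEED and fell by 0.86 in siSETD2. TGIF1 rose by 0.75, 0.80 and 0.77 in the same order of knockdowns, and the other 7 were not called. None of the 6 Groucho corepressors was called, and at an unadjusted p under 0.05 they were 3 higher in siWDR5 and 2 higher in each Polycomb knockdown, with 3 lower in siSETD2. Over all genes, 41.5% to 50.8% passed that unadjusted threshold in one direction or the other in a knockdown. The share of all genes that were called, higher or lower, ran from 5.82% in siSETD2 to 11.5% in siEED+RNF2.

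A further 64 homeobox genes outside the HOX clusters, of 74 listed, gave 2 calls in siWDR5 (3.12%), 1 in siEED (1.56%), 1 in siEED+RNF2 (1.56%) and 3 in siSETD2 (4.69%). Over all genes the shares called in either direction were 6.02%, 6.37%, 11.5% and 5.82%. In siWDR5, GBX2, a hindbrain boundary factor, rose by 0.67 and the posterior factor CDX4 fell by 0.85. CDX4 also fell by 0.91 in siEED, by 0.73 in siEED+RNF2 and by 1.59 in siSETD2. BARX1 and VENTX rose in siSETD2, by 0.66 and 0.61, and none of the 64 was called in siRNF2, where 6.37% of all genes were higher and 3.81% lower. At an unadjusted p under 0.05 in siRNF2, 3 of them were higher and 16 lower, beside 23.6% and 27.1% of all genes. Their median difference was between -0.04 and 0.00 in the 5 knockdowns, beside -0.04 to 0.02 for the 52 members. Among markers of the tissues these genes serve, none of 4 neural progenitor and none of 5 endoderm genes was called. Per knockdown, 5.82% to 11.5% of all genes were called. At an unadjusted p under 0.05, at most 2 of the neural and at most 3 of the endoderm genes differed in a knockdown, where 41.5% to 50.8% of all genes did. Of 5 mesoderm markers, HAND1 alone was called, falling by 1.59 in siWDR5, 0.81 in siEED and 1.94 in siSETD2.

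The promoters of the family were read for what they share in sequence. RefSeq windows on GRCh38.p14, from 250 bases before the start to 50 after it, were at hand for 37 of the 52 members, with 59 windows in all. Taking the window with the most CG dinucleotides for each gene, the members held a median of 24 and a range of 2 to 50, and 15843 protein-coding genes held a median of 24 and a range of 0 to 69. A window with at least 50% G and C and an observed over expected CG ratio of at least 0.6 was present for 32 of 37 members, 86.5%, and for 68.4% of protein-coding genes. All 4 promoters printed here came from such windows, and OTX2, TLX2, PAX2, PAX4 and PAX8 were the 5 members without one. The core homeodomain motif TAATTA, which reads the same on both strands, was in a window of 3 members (8.11%), EMX2, NKX2-1 and MSX2, and of 4.5% of protein-coding genes. The TATA box letters TATAAA, searched on both strands, were in a window of 4 members (10.8%) and of 12.4% of protein-coding genes. Such matches describe the letters only, and neither methylation nor histone marks at these windows were analysed here.

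**Figure D4:**
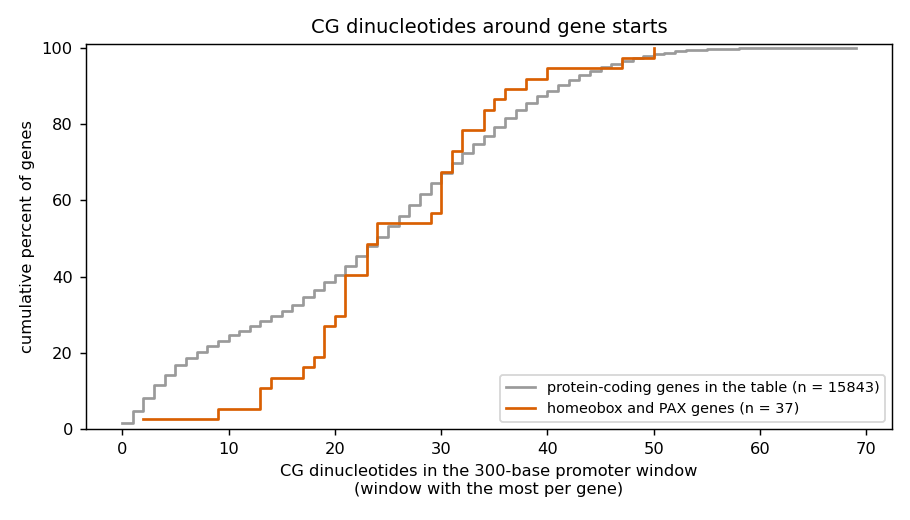
Cumulative percent of genes (y axis) by the number of CG dinucleotides in the 300-base promoter window (x axis, the window with the most for each gene), for 37 homeobox and PAX genes and 15843 protein-coding genes. The curves cross near the shared median of 24, and fewer of the homeobox and PAX genes have windows poor in CG.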

How the data were processed

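Transcript levels were measured on 12 Affymetrix Human Gene ST arrays, from 250 ng of RNA each, and conditions and replicate numbers come from the labels. The authors deposited log2 values for 33297 transcript clusters, and their processing notes name GCRMA and Partek, with versions and settings not given in the sources used here. Background correction and normalization thus preceded deposit and can compress the differences of dim genes. The array medians were 6.29 to 6.36. Clusters were named by platform annotation with symbols updated through RefSeq. The 12083 clusters with no gene and 1754 with several were left out, and the cluster brightest on average stood for its gene.

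In R 4.3.3, limma 3.58.1 was run once over the 12 arrays together, estimating 1 mean for each condition (6 residual degrees of freedom), and p-values were adjusted over 18417 genes. No filter was applied. The fit was tested on simulated data. The members and the lists were chosen with earlier results of these data known. Named with values in every array were LHX2, TLX2, called members and the 10 with the largest difference from siNTC. Of other lists, at most 4 called genes were named. Alternatives varied the model, normalization, dim genes, thresholds, reference and arrays. With 2 arrays per condition, precision is limited by their number. Figures were drawn with matplotlib 3.10.9.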

Additional observations from a re-analysis of the deposited data

Results flagged for a closer look

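The log2 difference that went with RNF2 siRNA for LHX2 differed with and without EED siRNA by 0.68 (adjusted p = 2.74e-04, limma interaction term). siEED+RNF2 differed from siEED by 0.56, whereas siRNF2 alone differed from siNTC by -0.12. The dual transfection also held more siRNA and reagent, and the part of this in the interaction was not tested. Among the 52 genes LHX2 was the only one whose interaction was called, where 3.89% of all genes were called higher and 7.43% lower. Leaving out single arrays gave 0.64 to 0.71 for LHX2.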

How the results depend on the processing

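Against siNTC, 3 members were called in siWDR5, 1 in siEED, 1 in siSETD2 and 0 in either of siRNF2 and siEED+RNF2, with 0 in siEED+RNF2 against either single knockdown, 1 in siRNF2 against siEED and 1 for the interaction. With no fold threshold the counts were 10 in siWDR5, 13 in siEED, 8 in siSETD2, 12 in siRNF2 and 14 in siEED+RNF2, then 3 for the dual knockdown against siEED, 1 against siRNF2, 3 for siRNF2 against siEED and 7 for the interaction. As shares these were 19.2%, 25.0%, 15.4%, 23.1%, 26.9%, 5.77%, 1.92%, 5.77% and 13.5% of the members, beside 33.8%, 35.4%, 31.7%, 43.0%, 42.1%, 13.7%, 17.4%, 10.7% and 30.5% of all genes. A limit of 2-fold left 0 in siWDR5, in siEED, in the interaction and in siRNF2 against siEED. After quantile normalization 1 was called in siRNF2 (EN1) and 1 in siEED+RNF2 against siEED (LHX2). With the mean of the other knockdowns as reference the counts were 0 in siWDR5, 0 in siEED, 1 in siRNF2 (LHX2, higher) and 1 in siEED+RNF2 (DLX5, higher). Leaving out single arrays gave 2 to 3 calls in siWDR5, 0 to 2 in siRNF2, 0 to 1 in siEED+RNF2, 1 to 2 in siSETD2, 0 to 1 in siEED+RNF2 against siEED and 1 to 2 for the interaction. The highest counts came without siNTC replicate 1 (EN1 and NKX6-1 in siRNF2, EN1 in siEED+RNF2 and the interaction), without siNTC replicate 2 (DLX5 in siSETD2) and without siEED replicate 2 (LHX2 against siEED). Where 1 array was left, it was assumed to vary like the other groups. With the replicate block the counts stayed at 3 in siWDR5, 1 in siEED, 1 in siSETD2 and 0 in siRNF2, and it changed no other count. Same-numbered arrays correlated in their deviations at -0.11 to 0.16 over 15 pairs of conditions, with 1 over 0.1, so the number was taken as a name only. Over 57 gene values and 1242 alternative values, 1195 stayed on their side of the threshold, 12 lost a call, 35 gained one and 0 called values changed sign. Leaving out the 30% dimmest genes kept 29 of the 52 members. The cause of these changes was not tested. No detection p was given for the dim members, and siNTC is the only control.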
